A study of Drosophila melanogaster with 12 samples.

Results

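The cuticle protein genes were taken as the probe sets that the array annotation assigns to a single gene whose symbol begins with Cpr, Twdl, Ccp84, Lcp, Pcp or Acp65. This gave 104 probe sets for 102 genes, of 18769 probe sets that are not array controls and of 11982 genes that have a probe set of their own. By name, 80 probe sets (78 genes) belong to the Rebers-Riddiford type and 24 to the Tweedle family. By the RefSeq annotation matched on gene ID, 40 probe sets lie on chromosome arm 3L, 26 on 3R, 23 on 2R, 7 on 2L and 8 on the X chromosome.

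RNA was measured on 12 Affymetrix Drosophila Genome arrays, with 3 arrays in each of 4 groups: abdomen and head/thorax of *loj* females and of control females. The *loj* females carried both mutant alleles of the p24 gene *logjam* (loj 00898/loj 04026), and p24 proteins are cargo adaptors of vesicles that move between the endoplasmic reticulum and the Golgi. Each control sample pooled 6 females of genotype loj 00898/+ with 6 of genotype loj 04026/+, so the controls also carried a mutant allele and no females without one were measured. Each sample held the tissue of 12 females, which were mated to wild-type males at an age of 4 days and dissected 3 h after mating. The samples came from separate RNA extractions. Abdomen and head/thorax were cut from the same females, so samples of both body parts may share females, and the labels do not say which do.

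The insect cuticle is secreted by the epidermis as layers of chitin fibres embedded in protein. Most structural cuticle proteins carry the Rebers-Riddiford domain, which binds chitin, and the number in a Cpr symbol is the band of the polytene chromosomes at which the gene lies. Tweedle proteins are a separate family, named after mutants with a short, stout body. These genes are known for large bursts of expression while a larval, pupal or adult cuticle is being laid down, and older symbols record the stage at which a protein was first found, as in larval (Lcp), pupal (Pcp) and adult (Acp) cuticle protein.

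Each value is the linear intensity of a probe set on 1 array. The background level of an array was set at the 95th percentile of its 27 bacterial control probe sets, and a probe set counted as above background in a group where it exceeded the level on all 3 arrays. In abdomen the level lay between 91.2 and 131 on control arrays and between 76.8 and 108 on *loj* arrays. In head/thorax it lay between 206 and 256 on control arrays and between 126 and 236 on *loj* arrays. The *loj* probe set itself gave 921 to 1220 on the 6 control arrays and 30.9 to 43.3 on the 6 *loj* arrays. The body parts also matched their labels: summed intensities of 3 flight muscle genes were at least 24800 in head/thorax and at most 199 in abdomen, and those of 4 follicle cell genes were at least 17500 in abdomen and at most 118 in head/thorax. Of 4 genes that mark epidermal cells building a cuticle, none was above background in any group. One of them, *neo*, exceeded the level on 1 control and 2 *loj* abdomen arrays. Outside these 4, the gene *pio* of a zona pellucida cuticle protein was above background in every group, with means of 173 to 1581. Intensities of different probe sets were not set against each other, because probes differ in how strongly they hybridize.

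Most cuticle protein genes were at background in these 4-day-old females. In control abdomens 16 of 104 probe sets (15.4%) were above background, against 45.5% of all probe sets, and in control head/thorax 19 of 104 (18.3%), against 38.8% of all. In *loj* the counts were 18 in abdomen and 28 in head/thorax, where 48.2% and 41.6% of all probe sets were above background. The larger *loj* count in head/thorax moved with the lower level of the *loj* arrays. With the highest level of the 6 arrays of a body part applied to all of them, a setting chosen after the data were seen, 17 probe sets remained in control and 18 in *loj* head/thorax, and 12 and 11 in abdomen.

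Over the 12 arrays, 57 probe sets (54.8%) exceeded the level on none, against 35.8% of all probe sets. Intensities of these 57 had a median of 34.5 over the abdomen arrays and of 48.1 over the head/thorax arrays, and the highest single values were 102 and 155. Another 14 probe sets exceeded the level on some arrays but on all 3 of no group: *Ccp84Ac*, *Cpr12A*, *Cpr30B*, *Cpr30F*, *Cpr47Eb*, *Cpr47Eg*, *Cpr60D*, *Cpr64Ac*, *Cpr76Bb*, *Lcp65Ac*, *Twdlalpha*, *TwdlG*, *TwdlP* and the second probe set of *Cpr47Ef*. The remaining 33 probe sets (31.7%, against 55.3% of all) were above background in at least 1 group. They comprised 25 of 80 probe sets (31.2%) of the Rebers-Riddiford type and 8 of 24 (33.3%) of the Tweedle family. With 1 level per body part, some of these 33 were above background in no group. They were *Cpr11A*, *Cpr49Ag*, *Cpr64Ab*, *Cpr64Ad*, *Lcp65Aa*, *Pcp*, *TwdlK*, *TwdlT*, *TwdlV* and the *Cpr47Ef* probe set counted among the 33. The bars of probe sets by group give the counts of each family.

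**Figure D1:**
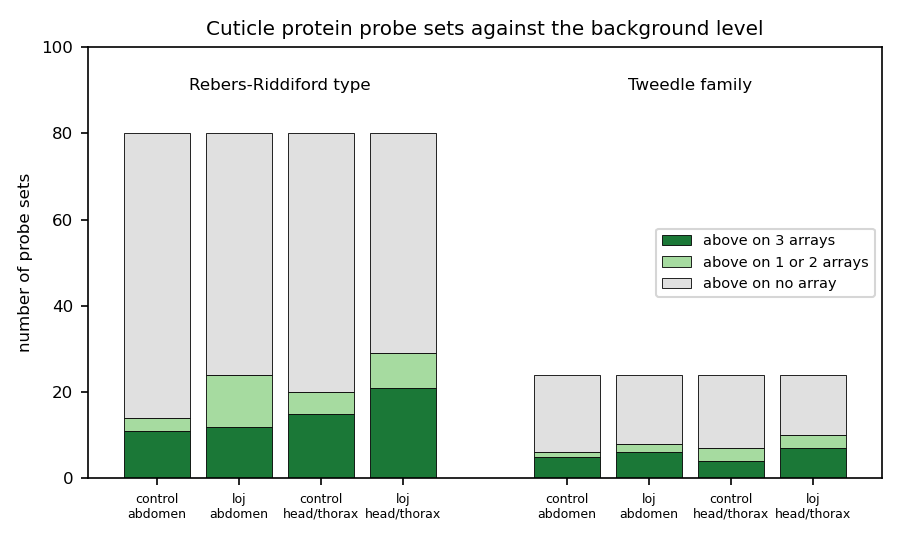
Number of cuticle protein probe sets (vertical axis) above the background level on 3 arrays, on 1 or 2 arrays and on no array of each group, for 80 probe sets of the Rebers-Riddiford type (left) and 24 of the Tweedle family (right). The segment for no array is the longest in every bar, and 65 to 84 of the 104 probe sets fall in it per group.

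Of all members, 31.7% were above background in at least 1 group, and differences between gene clusters were not tested. Several small clusters had no such member, namely 65E, 67F and 78C with 3 probe sets each and 76B with 4. In the 65A cluster, which holds most of the genes named for larval cuticle, 3 of 12 probe sets were above background in a group: *Acp65Aa*, *Cpr65Au* and *Lcp65Aa*. The 47E cluster (8 probe sets) had 3 such members, as did the 49A cluster (8 probe sets). Among the Tweedle genes they were *TwdlB*, *TwdlD*, *TwdlH*, *TwdlK*, *TwdlL*, *TwdlR*, *TwdlT* and *TwdlV*.

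Above background on all 12 arrays were 9 genes. Of these, 6 are of the Rebers-Riddiford type (*Cpr5C*, *Cpr49Ab*, *Cpr49Ae*, *Cpr65Au*, *Cpr67B* and *Lcp9*) and 3 are Tweedle genes (*TwdlB*, *TwdlH* and *TwdlL*). With 1 level per body part, *Lcp9* exceeded it on only 1 of 3 *loj* abdomen arrays. *TwdlL* then exceeded it on 2 control and 1 *loj* abdomen arrays. *TwdlB* gave intensities of 2035, 1837 and 2369 in control abdomens and 2697, 2311 and 2752 in control head/thorax. In *loj* it gave 1949, 2356 and 2300 in abdomen and 2037, 2069 and 2875 in head/thorax, so all 4 groups overlapped. *TwdlH* gave 799, 725 and 815 in control abdomens and 642, 689 and 851 in control head/thorax, which also overlapped.

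The adult cuticle protein gene *Acp65Aa* was above background in both abdomen groups and in *loj* head/thorax, and on 1 of 3 arrays of control head/thorax. Its values were 181, 146 and 224 in control abdomens and 181, 216 and 243 in control head/thorax. The gene named for pupal cuticle, *Pcp*, which lies within an intron of *Gart*, was above background in control abdomen and *loj* head/thorax. *Lcp9*, named for larval cuticle, gave 181, 138 and 200 in control abdomens and 994, 1351 and 1457 in control head/thorax. Of 6 measured genes of the larval and pupal stages outside the cuticle, only *Lsp2*, which encodes a storage protein, was above background in a group, in head/thorax of both genotypes.

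Replicates of the cuticle genes spread more, by the median, than those of all probe sets, and this was not tested. The probe sets compared were not matched on intensity. For members above background in a group, the median coefficient of variation over 3 arrays was 17.4% in control abdomen, 13.7% in *loj* abdomen, 10.6% in control head/thorax and 14.4% in *loj* head/thorax. The medians for all probe sets above background were 9.58%, 7.49%, 5.42% and 7.29%. In *loj* head/thorax, coefficients for members ran from 0.684% for *Cpr72Ec* to 34.3% for *Cpr97Eb*. Only 3 arrays per group limit the precision of each value.

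**Figure D2:**
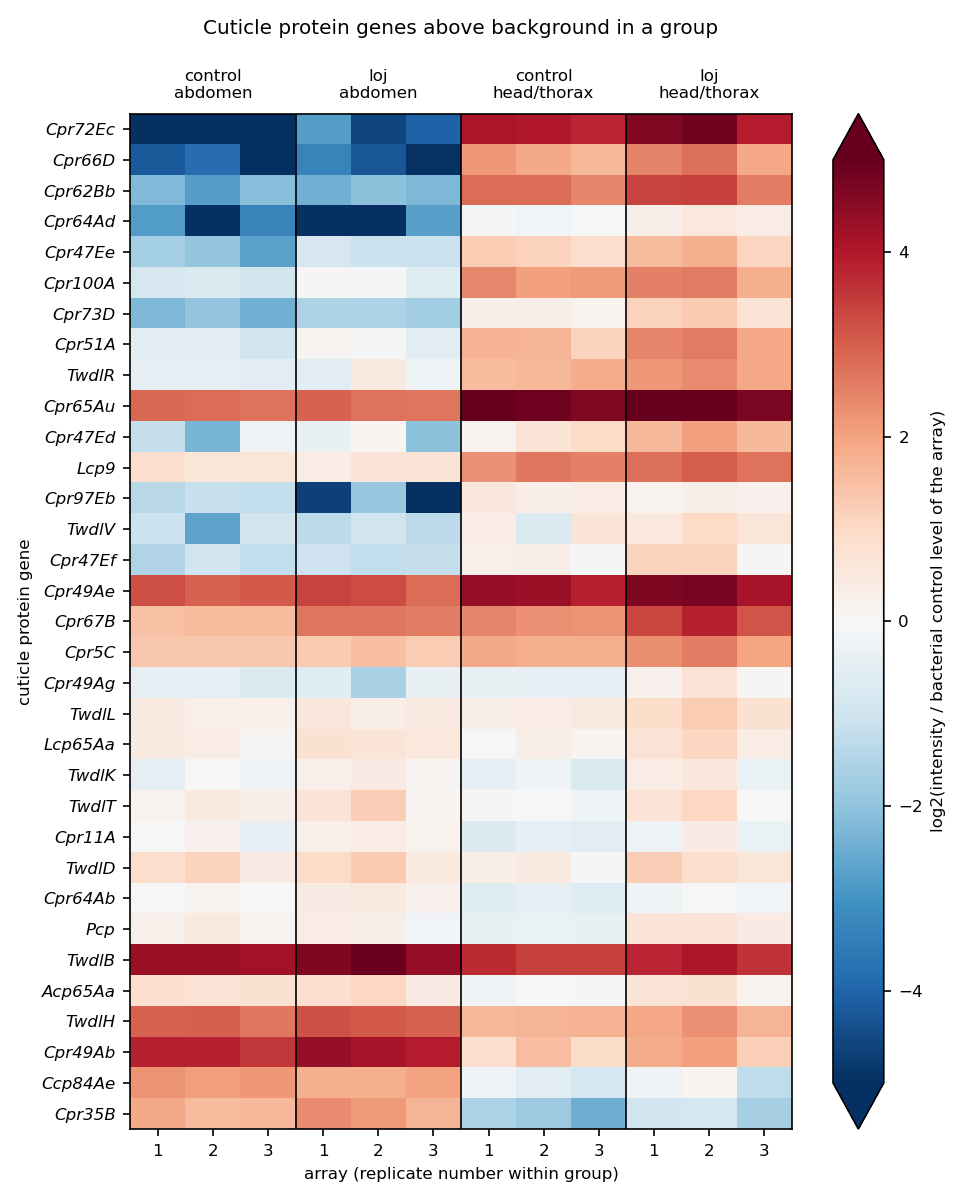
Log2 ratio of the intensity to the background level of the same array (colour, limited at 5 and -5) for the 33 cuticle protein probe sets above background in at least 1 group, with the 12 arrays as columns by group and the genes as rows from the highest to the lowest body part difference in controls. Rows at the top turn from blue in abdomen to red in head/thorax, and *Ccp84Ae* and *Cpr35B* at the bottom turn the other way. Colours compare arrays within a row.

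The body parts were compared to ask which cuticle genes are kept on in which part of the adult. In controls, 43 members (41.3%) were higher in head/thorax and 6 (5.77%) were higher in abdomen, by limma on all 12 arrays with a call at 1.5-fold or more and a Benjamini-Hochberg adjusted p under 0.05. Among all probe sets the shares were 33% and 22.6%. In either direction, 47.1% of members and 55.6% of all probe sets were called. In *loj*, 51 members (49%) were higher in head/thorax and 6 (5.77%) in abdomen, against 35.1% and 21.5% of all, and in either direction 54.8% against 56.6%. Many of the called members were above background in no group. Among probe sets above background in a group, 23 of 33 members were higher in head/thorax and 3 in abdomen of controls (27 and 3 in *loj*). The shares of all such probe sets called are not given, so these counts cannot be set against them. How the arrays of the body parts were scaled to each other is not known, and the median log2 difference of all probe sets was 0.219 in controls and 0.294 in *loj*. The median over members, on the same scale and not corrected for that shift, was 0.604 in controls and 0.748 in *loj*.

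The split depended on the scaling. After quantile normalization, 31 members were higher in head/thorax and 12 in abdomen of controls (35 and 16 in *loj*). After each array was centred on its median, which lowers every log2 difference by 0.593 in controls and 0.623 in *loj*, the counts were 29 and 18 (33 and 18 in *loj*). The median log2 difference of all probe sets moved as well. It was -0.153 in controls and -0.106 in *loj* after quantile normalization, and -0.374 and -0.329 after centring. Shares of all probe sets called under these scalings are not given, so the members cannot be set against them there. In bulk tissue, fewer cells of a type and less RNA per cell cannot be told apart.

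On all 6 head/thorax arrays and on no abdomen array, 6 genes were above background: *Cpr47Ee*, *Cpr62Bb*, *Cpr66D*, *Cpr72Ec*, *Cpr73D* and *Cpr97Eb*. They were 5.77% of members, and the share of all probe sets with this pattern is not given. With 1 level per body part, *Cpr73D* exceeded it on only 2 of 3 control head/thorax arrays. *Cpr97Eb* then exceeded it on only 1 of 3 *loj* head/thorax arrays. For genes at background in abdomen, the abdomen value is only a bound. Their fold is a lower limit computed against the background level, with limma's adjusted p beside it. This limit holds on the deposited scale only, because the scaling between body parts is not known. *Cpr72Ec* encodes a protein of the corneal lens, the cuticle that covers each facet of the compound eye. It gave intensities of 3509, 3473 and 3616 in control head/thorax and 3581, 3556 and 3605 in *loj* head/thorax. In abdomen it gave 2.18, -5.04 and 3.13 in controls and 11.3, 3.27 and 6.58 in *loj*, far below the level on every array. Head/thorax exceeded abdomen by at least 33-fold in controls (adjusted p = 8.24e-10) and by at least 41.2-fold in *loj* (adjusted p = 3.5e-09).

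*Cpr66D*, which also encodes a corneal lens protein, gave 934, 801 and 789 in control head/thorax and 809, 851 and 898 in *loj* head/thorax, while its abdomen values were 3.53 to 7.66. The difference was at least 7.85-fold in controls and at least 9.8-fold in *loj* (adjusted p = 7.21e-10 and 6.77e-10). The photoreceptor gene measured beside them, *trp*, had the same distribution, with 3260 to 3900 in head/thorax and at most 11.3 in abdomen.

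*Cpr62Bb* gave 1436, 1477 and 1397 in control head/thorax and 22.2, 13.5 and 29.5 in control abdomens. The difference was at least 13.4-fold in controls (adjusted p = 7.79e-10) and at least 16.2-fold in *loj*. *Cpr47Ee* gave 494, 474 and 473 against 31.6, 23 and 20.6 and was at least 4.49-fold higher. *Cpr73D* gave 253, 260 and 280 against 21.8, 23.2 and 24.8 and was at least 2.47-fold higher. In each of these genes all head/thorax arrays lay above all abdomen arrays in both genotypes.

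Another 4 genes were above background on all 6 head/thorax arrays and on 1 abdomen array each, a *loj* array in every case: *Cpr100A*, *Cpr51A*, *Cpr47Ed* and *TwdlR*. *Cpr100A* gave 1101, 882 and 1111 in control head/thorax and 57.9, 54.9 and 69.7 in control abdomens, at least 9.59-fold (adjusted p = 7.1e-11). *TwdlR*, the 1 Tweedle gene of this kind, gave 609, 683 and 918 against 76.4, 67.2 and 88.9, at least 6.79-fold (adjusted p = 2.96e-07). *Cpr51A* was at least 5.99-fold and *Cpr47Ed* at least 3.22-fold higher in head/thorax of controls. With 1 level per body part, *Cpr47Ed* exceeded it on only 2 of 3 control head/thorax arrays.

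Among genes measured above background in both body parts of controls, 6 were higher in head/thorax. *Cpr65Au* gave 6448, 6247 and 6297 in control head/thorax and 758, 626 and 847 in control abdomens, a log2 fold change of 3.10 (SE 0.12, 8.58-fold, adjusted p = 5.74e-10). *Lcp9* differed by 2.87 on the log2 scale (SE 0.24), *Cpr49Ae* by 2.18 (SE 0.13), *Cpr67B* by 1.85 (SE 0.17), *Cpr5C* by 1.56 (SE 0.16) and *TwdlL* by 1.14 (SE 0.20). *TwdlL* lost its call after median centring (log2 fold change 0.55), and the other 5 kept theirs under all alternatives run. In *loj* the same 6 genes were higher in head/thorax, with log2 fold changes of 1.44 for *TwdlL* to 3.27 for *Cpr65Au*.

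On the deposited scale 6 members were called higher in abdomen of controls, with 12 after quantile normalization and 18 after median centring. *Cpr35B* was the single member above background on all 6 abdomen arrays and on no head/thorax array. It gave 384, 273 and 397 in control abdomens and 70.3, 60.7 and 46.7 in control head/thorax, a difference of at least 1.55-fold (adjusted p = 7.51e-08), which in *loj* was at least 2.25-fold. *Ccp84Ae*, of the cuticle gene cluster inside the Antennapedia complex, gave 487, 385 and 586 against 184, 148 and 138, at least 2.14-fold (adjusted p = 3.14e-05). *Cpr49Ab*, measured in both parts, gave 1457, 1328 and 1518 against 366, 622 and 483, a log2 fold change of -1.58 (SE 0.15, 2.99-fold, adjusted p = 1.64e-06). Its neighbour *Cpr49Ae* ran the other way, so genes of a single cluster differed in their side. The other 3 members called higher in abdomen, *Cpr23B*, *Cpr67Fa1* and *Cpr30B*, were at background in both parts of controls.

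The 2 Tweedle genes *TwdlB* (log2 fold change 0.32, SE 0.14, adjusted p = 0.0684) and *TwdlH* (-0.11, SE 0.14, adjusted p = 0.528) were not called between body parts in controls, nor was *Acp65Aa* (0.23, SE 0.17, adjusted p = 0.262). *TwdlT*, *TwdlK*, *Lcp65Aa* and *Cpr49Ag* were called higher in head/thorax (log2 fold changes 0.72 to 1.23), but all 4 lost the call under quantile normalization and under median centring.

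**Figure D3:**
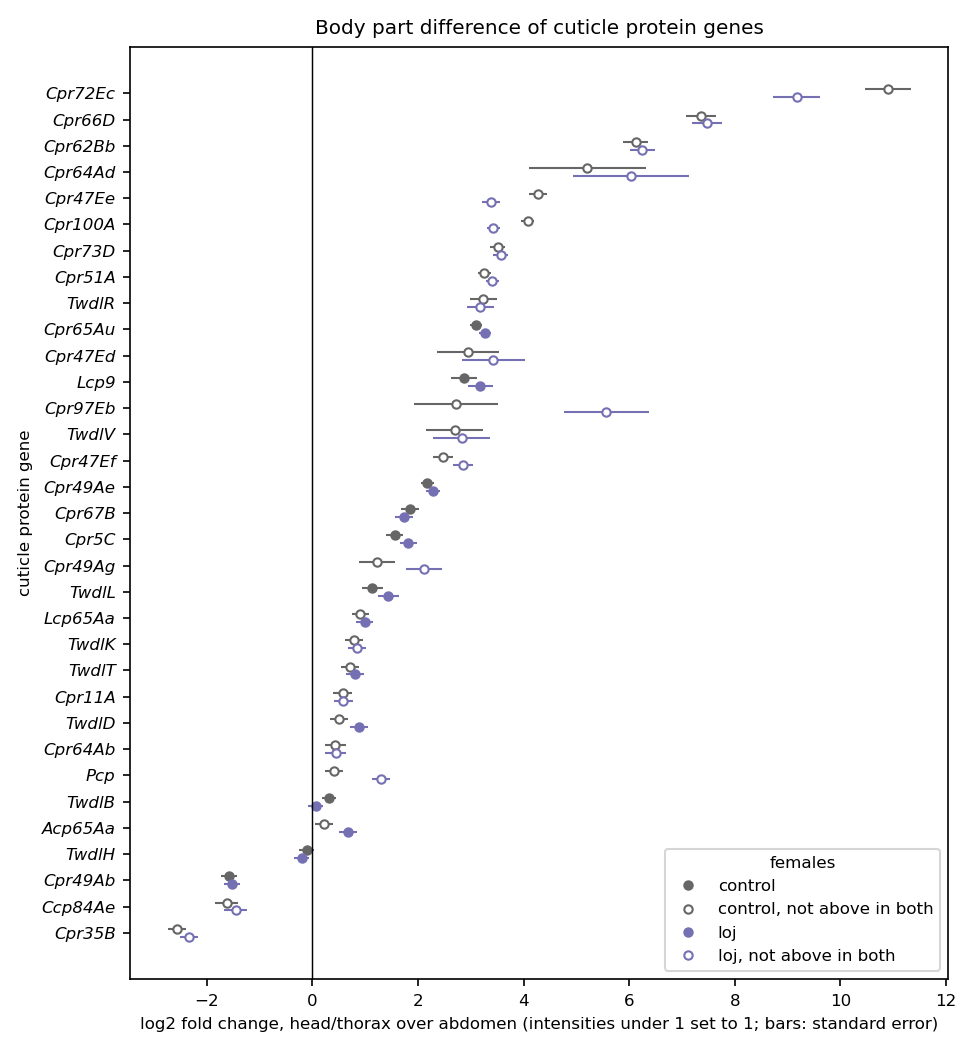
Log2 fold change of head/thorax over abdomen (horizontal axis) with its standard error (bars) for the 33 cuticle protein probe sets above background in a group, in control (grey) and *loj* (violet) females. Filled points are above background in both body parts and open points are not, so the distance of an open point is no fold. *Cpr49Ab*, *Ccp84Ae* and *Cpr35B* lie left of 0 in both genotypes.

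The next question was whether loss of *loj* changed these genes. In abdomen no member was called, against 0.874% of all probe sets (164 of 18769), of which 0.618% were higher and 0.256% lower in *loj*. At an unadjusted p under 0.05 there were 10 members, and 13.9% of all probe sets were past it. The 3 *loj* arrays did not overlap the 3 control arrays in 15 members (14.4%), against 19.5% of all probe sets. Of the 15, 11 (10.6%) were higher in *loj*, against 8.96% of all, and 4 (3.85%) lower, against 10.6% of all. Of 19 members above background in an abdomen group, 18 (94.7%) changed by less than 1.5-fold, against 94.6% of all such probe sets, and their log2 fold changes ran from -0.57 for *Ccp84Ae* to 0.79 for *Cpr67B*.

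In head/thorax 1 member was called, *Cpr47Ea*, lower in *loj*, against 1.86% of all probe sets in either direction, 1.09% higher and 0.778% lower. An unadjusted p under 0.05 was found for 9 members, against 17.8% of all. The groups did not overlap in 17 members (16.3%), against 23.8% of all. Of the 17, 13 (12.5%) were higher in *loj*, against 11.3% of all, and 4 (3.85%) lower, against 12.5% of all. Of 28 members above background in a head/thorax group, 25 (89.3%) changed by less than 1.5-fold, against 93.9% of all such probe sets. The median log2 fold change of the 104 members was -0.01 in abdomen (-0.03 over all probe sets) and 0.06 in head/thorax (-0.01 over all).

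The log2 ratio of the 3' to the 5' *Act5C* control probe sets, a sign of RNA quality, was 1.38 ± 0.056 (SD, n = 3) in control and 0.887 ± 0.12 in *loj* head/thorax. In abdomen it was 0.818 ± 0.077 and 0.689 ± 0.024. The exact permutation test gave p = 0.1 in each body part, two-sided, the smallest p that 3 arrays against 3 allow. The part of this difference in the values of the cuticle genes was not tested.

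*Cpr47Ea* gave intensities of 107, 93.6 and 82.7 in control head/thorax and 13.5, 32.5 and 20.9 in *loj* head/thorax, so the groups did not overlap. The log2 fold change was -2.16 (SE 0.35, adjusted p = 0.035), but no array of either group exceeded the background level of 126 to 256, and no fold is given. In abdomen it gave -2.99 to 14.9. The call was lost when any 1 control head/thorax array was left out (adjusted p = 0.108 to 0.146), without *loj* replicate 2 (0.051) or 3 (0.0958), and in the fit to all 12 arrays (0.398), and over 14 alternatives the adjusted p ran from 0.0113 to 0.398.

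*Cpr67B*, above background on every array, had values that did not overlap between genotypes in either body part. In abdomen it gave 283, 274 and 391 in controls and 493, 488 and 645 in *loj*, a log2 fold change of 0.79 (SE 0.18, adjusted p = 0.127). In head/thorax it gave 1112, 1046 and 1211 in controls and 1477, 1856 and 2109 in *loj*, a log2 fold change of 0.68 (SE 0.14, adjusted p = 0.062). Neither passed the threshold. In the fit to all 12 arrays both did (adjusted p = 0.0249 and 0.0449), and in head/thorax it also did after quantile normalization (0.049), after median centring (0.0172), among probe sets above background alone (0.0378) and without *loj* replicate 1 (0.0211). Over its 15 alternatives the adjusted p ran from 0.0249 to 0.318 in abdomen, and over 15 in head/thorax from 0.0172 to 0.202.

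Other members expressed in head/thorax had smaller differences. *Cpr100A* gave 837, 756 and 825 in *loj*, all below the controls' 1101, 882 and 1111 (log2 fold change -0.35, SE 0.10, adjusted p = 0.154). *Cpr51A* gave 788, 771 and 905 in *loj* and 690, 691 and 552 in controls (0.35, SE 0.11, adjusted p = 0.179). *Cpr73D* gave 325, 310 and 375 in *loj* and 253, 260 and 280 in controls (0.35, SE 0.09, adjusted p = 0.131). Groups of these 3 genes did not overlap, and none was called. *Cpr97Eb* gave 163, 153 and 275 in *loj* and 302, 267 and 333 in controls, which overlapped (-0.66, SE 0.24, adjusted p = 0.233), and without *loj* replicate 3, its highest *loj* array, it was called (-0.92, adjusted p = 0.0423, against up to 0.811 over 15 alternatives).

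The corneal lens genes were not called between genotypes in head/thorax. The log2 fold change of *loj* over control was 0.02 (SE 0.03) for *Cpr72Ec* and 0.02 (SE 0.08) for *Cpr66D*, and for *Cpr62Bb* it was -0.03 (SE 0.06). *Cpr65Au*, with 5326, 5976 and 6153 in *loj*, lay just below its control values (-0.12, SE 0.06, adjusted p = 0.359), with no overlap.

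In abdomen, *Pcp* gave 99.2, 95.5 and 99 in *loj*, all below the controls' 122, 127 and 145 (log2 fold change -0.42, SE 0.11, adjusted p = 0.156). In head/thorax the *loj* values were 227, 198 and 316 against 157, 169 and 200 in controls, which overlapped (0.47, SE 0.20, adjusted p = 0.294). *Ccp84Ae* gave 274, 277 and 440 in *loj* abdomens and 487, 385 and 586 in controls, which overlapped (-0.57, SE 0.24, adjusted p = 0.378). The panels of intensity by array place these values against the background level.

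**Figure D4:**
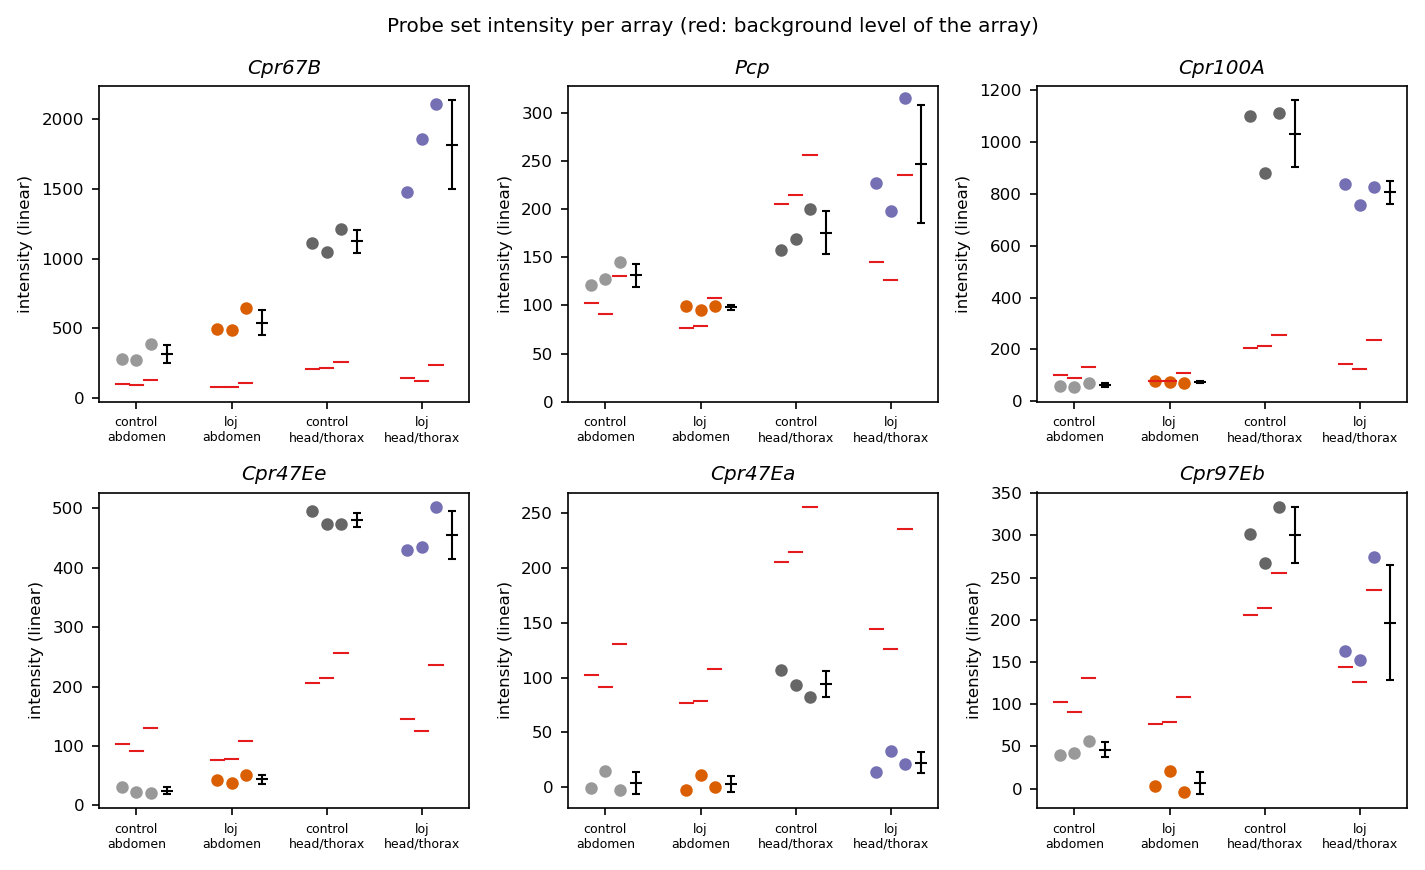
Intensity (vertical axis, linear) of 6 cuticle protein genes on each array by group. Points are the 3 arrays of a group, the black line and bar are their mean and SD (n = 3), and red marks are the background level of each array. *Cpr67B* lies above the level on every array and higher in *loj*, *Cpr47Ea* lies below it on every array, and *Cpr100A*, *Cpr47Ee* and *Cpr97Eb* exceed it in head/thorax.

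No member was called for a difference of the *loj* change between body parts, against 0.506% of all probe sets (0.234% higher and 0.272% lower), and 6 members had an unadjusted p under 0.05, against 9.38% of all. *Pcp* differed by 0.89 on the log2 scale, the change being higher in head/thorax (SE 0.23, adjusted p = 0.183). *Cpr100A* differed by -0.66 (SE 0.17, adjusted p = 0.175) and *Cpr47Ee* by -0.90 (SE 0.25, adjusted p = 0.2), both with abdomen values at background. The other 3 were *Cpr72Ec*, *Cpr97Eb* and *Cpr76Bc*, whose abdomen values were also at background.

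Lists of genes for chitin and for building, hardening or remodelling cuticle were compared in the same way. A place on a list does not show that a gene acts in the cuticle of these females. Beside their counts stand the shares of all probe sets called higher and lower in *loj*, which were 0.618% and 0.256% in abdomen and 1.09% and 0.778% in head/thorax. Chitin is polymerized by the synthase *kkv*, which was at background in all groups (means of 16.3 to 25.2), and chitin deacetylases modify it. Of 14 measured genes for chitin synthesis and deacetylation, none was called in abdomen and 2 fell in *loj* head/thorax. They were *Cda9*, with 506, 399 and 376 in controls and 111, 107 and 177 in *loj* (log2 fold change -1.73, SE 0.23, adjusted p = 0.0205), and *Cda5*, with 350, 279 and 336 against 217, 214 and 203 (-0.60, SE 0.11, adjusted p = 0.0437). No *loj* head/thorax array of *Cda9* exceeded the background level, so its fall is only bounded, at 2.6-fold or more. *Cda5* exceeded the level on 2 of 3 *loj* head/thorax arrays. Neither gene's groups overlapped.

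Of 15 chitin-organising and peritrophin genes, a list that also holds *TwdlX*, none was called in abdomen, while 1 fell and 1 rose in *loj* head/thorax. *obst-A*, which encodes a chitin-binding protein that organises the matrix, fell from 642, 621 and 578 to 320, 291 and 364 (-0.92, SE 0.10, adjusted p = 0.0111). The gene that rose, *obst-H*, was at background in both groups. Of 16 chitinases and related imaginal disc growth factors, 1 rose in abdomen (*Idgf3*) and 3 in head/thorax (*Cht4*, *Cht9* and *Idgf1*, with log2 fold changes of 0.60 to 1.18), and none fell.

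Of 24 enzymes of sclerotization and pigmentation, 2 rose in *loj* abdomen and none was called in head/thorax. *Ddc*, the dopa decarboxylase that makes dopamine for hardening and colouring cuticle, rose from a mean of 291 ± 65.6 (SD, n = 3) to 871 ± 68.3 (log2 fold change 1.60, SE 0.17, adjusted p = 0.0214). The other, *yellow-e3*, was at background in both abdomen groups. None of 8 zona pellucida cuticle proteins and none of 14 other structural cuticle proteins was called in either body part. The median log2 fold change of a list lay between -0.09 and 0.21 in abdomen and between -0.07 and 0.17 in head/thorax over these 6 lists.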

How the data were processed

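For each of 12 arrays the authors deposited a linear intensity per probe set. They worked with values from GCOS and from dChip in its PM-MM and PM forms, and GCOS 1.2 is named in the submitters' processing notes. Which of these was deposited and how arrays were scaled are not given in the sources used here. Of the values tested, 2.02% were below 0, which can arise where mismatch signal is subtracted, as in PM-MM, and such a value was read as at background.

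The 183 array control probe sets were left out, values under 1 were set to 1, and log2 intensities of 18769 probe sets were fitted by limma 3.58.1 (R 4.3.3) with an intensity trend. *loj* and control were compared within each body part, and body parts and their interaction on all 12 arrays. Adjustment of p values over all probe sets followed Benjamini and Hochberg, and a call needed an adjusted p under 0.05 and 1.5-fold (the interaction, the adjusted p alone). At-least folds set the bright group's mean log2 intensity against the dim group's mean background level, on the deposited scale. The procedure was tested on simulated data. Alternatives were other scalings, floors, filters, fits and thresholds, a replicate block, leaving out each array and other background levels.

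Of the array's probe sets, 13647 carry 1 gene, 402 several and 4720 no name here. The rule for named genes took members above background in a group, called members, the 5 highest and 5 lowest changes per body part, the 10 highest and 10 lowest called between body parts, and called genes of the lists. It also listed *Cpr67B* and *Cpr47Ea* by name, as genes held in the study's own tables. *TwdlX*, *TwdlZ*, *trp*, *kkv*, *Lsp2*, *neo*, *pio* and the members above background on some arrays of a group were named after their values were seen. The members and lists were chosen with earlier results of these data known.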

Additional observations from a re-analysis of the deposited data

How the results depend on the processing

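Of the comparisons of single genes under the alternatives, 730 stayed on their side of the threshold with the same direction, 28 lost and 7 gained a call and 5 changed sign. The sign changes were all in *loj* against control in abdomen with an array left out, and none of these values was called: *Cpr35B* (-0.0961 to 0.174 over the arrays left out) and *TwdlB* (-0.00137 to 0.182), both negative without control replicate 2, and *Cpr47Ea*, at background (-1.3 to 1.16).

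In abdomen, 2 members were higher in *loj* (*Cpr67B* and *Cpr47Ee*) and 1 lower (*Cpr97Eb*) in the fit to all 12 arrays. In head/thorax, 1 member was higher, *Cpr67B*, after quantile normalization, after median centring, among probe sets above background and in the fit to all 12 arrays, and 0 to 1 with an array left out. The lower call of *Cpr47Ea* went, leaving 0, among probe sets above background, without the intensity trend (adjusted p = 0.0701), in the fit to all 12 arrays and with the replicate block, and 0 to 1 remained with an array left out. For the difference between body parts, 1 member was lower with values under 32 set to 32 (*Cpr47Ea*, -1.54), and 0 to 1 was higher with an array left out (*Cpr97Eb*, 4.05 without *loj* abdomen replicate 2).

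Between body parts, the counts higher in abdomen rose to 12 in controls and 16 in *loj* after quantile normalization and to 18 in each after median centring, where 33 were higher in head/thorax of *loj*. Among probe sets above background the counts were 23 and 3 in controls and 27 and 3 in *loj*, since members above background in no group were left out. At an unadjusted p under 0.001, 3 were higher in abdomen of *loj*.

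With the highest bacterial control probe set as the level, 9, 8, 9 and 12 members were above background in control abdomen, *loj* abdomen, control head/thorax and *loj* head/thorax. With 1 level per body part, chosen after the data were seen, 11 remained in *loj* abdomen and 18 in *loj* head/thorax.

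The labels do not tie samples of 1 number to each other, and in no comparison did all 3 same-numbered pairs of arrays correlate by over 0.1 in their deviations from the group means. Over all probe sets the correlations were -0.011, -0.0074 and 0.031 for *loj* and control abdomen, 0.048, 0.044 and 0.12 for head/thorax, 0.014, 0.044 and 0.078 for the body parts of controls and 0.081, -0.0018 and 0.057 for those of *loj*. Over probe sets above background they were -0.043, 0.048 and 0.13, then 0.075, 0.099 and 0.099, then -0.012, 0.076 and 0.13, and 0.19, 0.087 and 0.21. In head/thorax, and over probe sets above background between the body parts of *loj*, every same-numbered pair correlated more than any other pair (at most 0.029 and -0.0092), a hint from the data and not from the design. With the replicate number as a block, 0 members were called in *loj* against control in either body part (adjusted p = 0.105 for *Cpr47Ea*), 45 and 6 between body parts of controls and 52 and 6 of *loj*. Of the called genes of the other lists, *Cht9* alone stayed under 0.05 with the block (0.034).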

Other observations

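Another 4 probe sets of cuticle genes are assigned to a pair of genes each and were left out of the members, since their signal cannot be given to either gene. The probe set of *Cpr65Ax1* and *Cpr65Ax2*, a pair of near-identical copies in the 65A cluster, was above background on all 12 arrays. It gave 224, 157 and 273 in control abdomens, 147, 166 and 184 in *loj* abdomens, 260, 341 and 464 in control head/thorax and 260, 300 and 414 in *loj* head/thorax. The probe set of *Ccp84Aa* and *Ccp84Ab* was above background on 3 arrays in *loj* head/thorax, with 265, 218 and 297, and on 1 array in control head/thorax, with 211, 208 and 188. The probe sets of *Cpr67Fa1* with *Cpr67Fa2* and of *Lcp65Ag1* with *Lcp65Ag2* were above background in no group.

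For both genes with a pair of probe sets of their own, the probe sets differed in which arrays exceeded the background level. For *Lcp65Aa*, 1 probe set gave 117 to 157 on abdomen arrays and 203 to 307 on head/thorax arrays, and was above background in 3 of 4 groups, and the other was at background on every array. For *Cpr47Ef*, 1 probe set gave 240 to 323 in head/thorax and 33.3 to 55.5 in abdomen and was above background in *loj* head/thorax. The other gave 57.5 to 84.2 in head/thorax and 71.5 to 87.7 in abdomen and was above background in no group. So the body part difference of *Cpr47Ef* was seen with only 1 of its probe sets.

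*TwdlZ* gave values far below 0 on all 6 head/thorax arrays, from -570 to -379, while its abdomen values were -6.06 to 16.6. With the floor at 1 the head/thorax values became equal, so the gene has no fold there.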
